A study of Homo sapiens with 16 samples.

Results

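RPF2, CCT3, LTV1, ANXA1 and ERP44 are 5 genes in which runs of peaks appeared in the lists named for sodium arsenite and were few or absent in the others. The peaks come from RNA immunoprecipitation and sequencing (RIP-seq) of H1299, a human cell line from a lung carcinoma, with an antibody to the Myc tag of stably expressed PABPC1. A peak is a genomic stretch that the authors' caller reported as enriched in reads. The genes were chosen with the peaks of these lists in view, so their difference between the lists named for arsenite and the others is described here without a test. All peaks on the strand of each gene that touched its interval in the hg19 build were taken, 188 peaks of the 175749 in the 8 lists. Overlapping peaks of 1 strand were merged over the lists into regions, which gave 43 regions in the 5 genes out of 36802 in all.

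All cells carried PABPC1 with a Myc tag, as wild type (WT) or with a lysine-to-arginine change (K512R), and were left untreated or given 500 µM arsenite (AS). Whether a line was 1 clone is not stated in the labels. The 8 lists form 4 pairs, A to D, each with replicates 1 and 2. By the sample record, A is the immunoprecipitate (IP) of untreated WT cells, B the input of untreated WT cells, C the IP and D the input of WT cells given AS. By the names of the lists, A is untreated WT, B is WT with AS, C is untreated K512R and D is K512R with AS. The 2 readings disagree for 6 of the 8 lists, the conflict was not settled, and no list was used for the 8 samples titled K512R. B and D are thus input by the record and AS by the names, and a difference of B and D from A and C has both readings throughout. The lists held 19953 to 25111 peaks, read depth is unknown, and the labels do not tell if replicates are separate cultures. The p-values thus measure only the spread between lists, which may be technical.

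PABPC1 coats the poly(A) tails of most cytoplasmic mRNAs and acts in their translation and stability. Arsenite causes oxidative and protein-folding stress, arrests most translation and sends many mRNAs with PABPC1 into stress granules. A list of peaks does not separate more RNA of a gene in the library from more of that RNA bound to the protein. The 5 genes act in making ribosomes, in folding proteins or at membranes. RPF2 loads 5S ribosomal RNA onto the large subunit precursor and LTV1 helps the small subunit precursor mature. CCT3 is a subunit of the chaperonin TRiC, which folds actin and tubulin, and ERP44 is a thioredoxin-like protein that retains and checks secretory proteins early in the secretory pathway. ANXA1, annexin A1, binds phospholipids in the presence of calcium and has anti-inflammatory actions. The related genes listed for this work (other TRiC subunits, assembly factors, annexins and oxidoreductases) were not placed, since the gene table at hand is in another build. The 5 symbols were all found in RefSeq on the same chromosome, and the hg19 intervals were 99.2% to 100.7% as long as the RefSeq genes.

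Of the 43 regions, 30 (69.8%) had a peak in all 4 lists of B and D and in none of A and C. Over all regions of the series, 3.01% did. Pair by pair, 32 regions had a peak in both lists of B and none of A (8.21% of all regions), and 32 in both lists of D and none of C (6.26% of all regions). The members were chosen on these contrasts, so nothing is read from the differences. A further 4 regions were found in some lists of B and D and in none of A and C, 4 in all 8 lists, and 5 in some but not all lists, with peaks on both sides. No region was found in A and C alone. In no list did any of the 5 intervals hold a listed peak on the opposite strand. The lists carry mRNA in their names and how they gave a peak its strand is not known here, so nothing is read from this. The regions were 40 to 1250 bp wide with a median of 133 bp, against 180 bp over all regions, and 7 were wider than 300 bp. Between neighbouring regions lay a median of 1550 bp in LTV1, 1821 bp in CCT3, 2227.5 bp in ANXA1, 2302 bp in ERP44 and 6608 bp in RPF2. The runs were thus short peaks set kilobases apart, and they covered between 1.48% and 10.4% of an interval in the lists of B and D. Their ends repeated exactly. In 38 of the 43 regions (88.4%) every list that had a peak gave it the same start and end, and over the 30472 regions found in 2 or more lists 76.0% did.

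**Figure D1:**
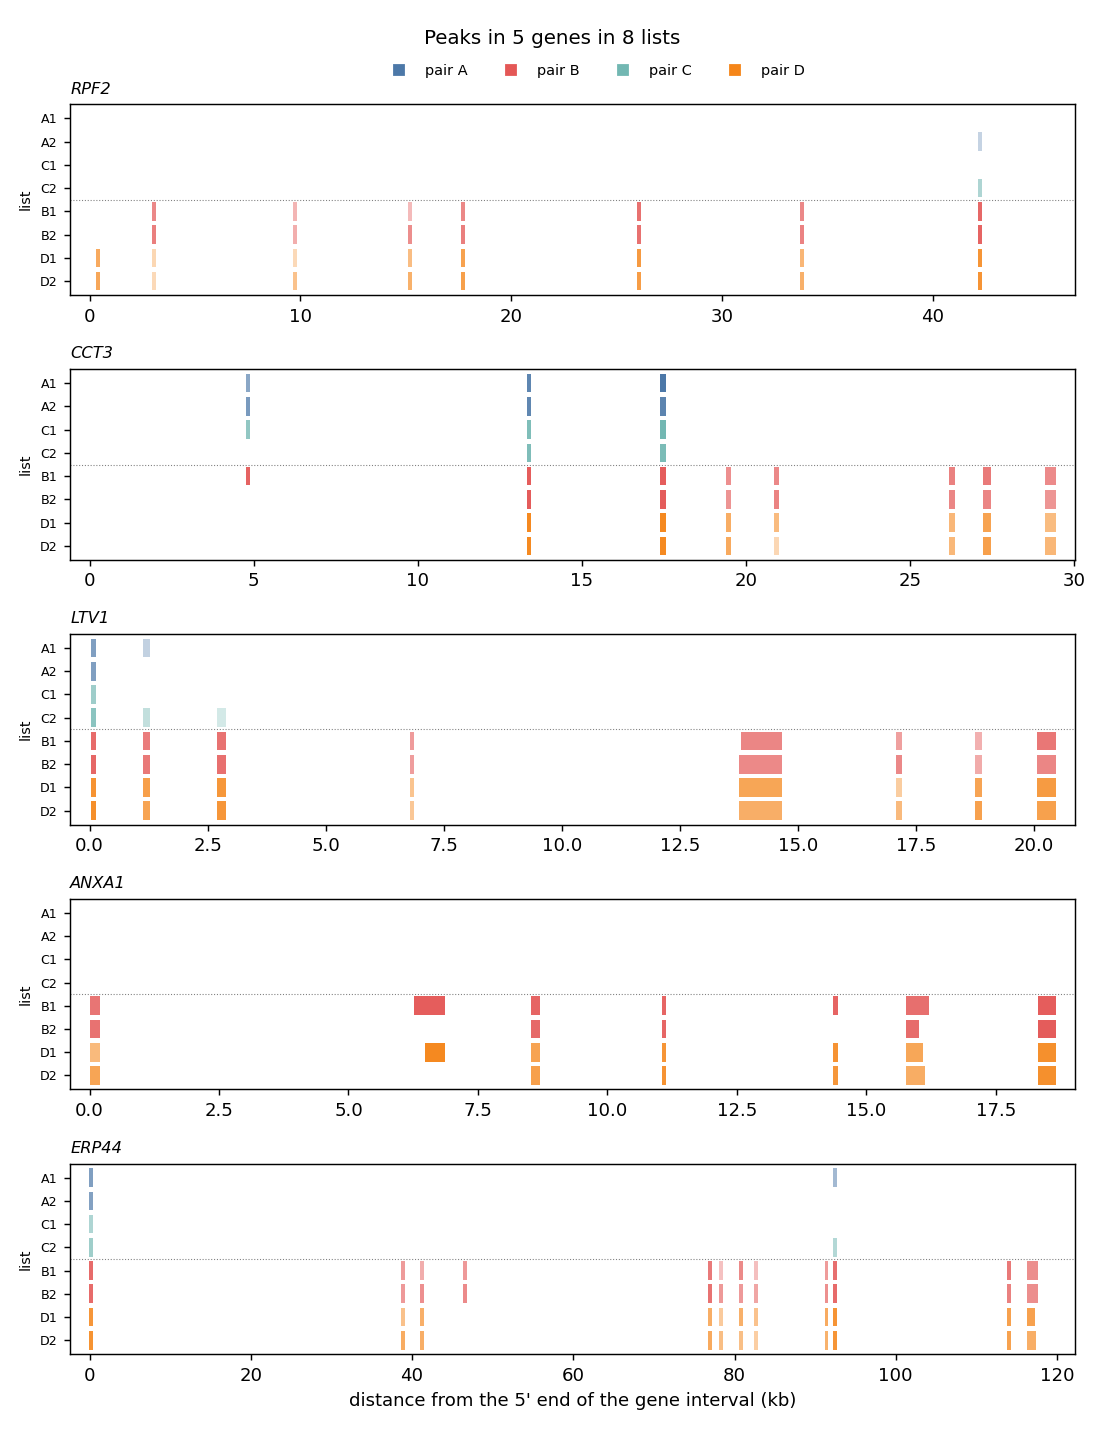
Peaks of the 5 genes in each list, by distance from the 5' end of the interval in kb. Each row is a list, with A and C above the dotted line and B and D below it, darker bars have a higher score percentile within their list, and peaks narrower than 0.4% of the interval are drawn at that width. The rows of B and D hold 5 to 12 peaks per gene and those of A and C 0 to 3.

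RPF2 lies on chromosome 6 at 111303218 to 111349069 (plus strand, 45852 bp). It had 7 peaks in each list of B and 8 in each list of D, against 0 and 1 in A and 0 and 1 in C. The mean was 7.5 ± 0.577 in B and D and 0.5 ± 0.577 in A and C (SD, n = 4 lists each), and the lists did not overlap. Covered length, the summed width of a gene's peaks, was 680 bp in both lists of B, 868 bp in both lists of D and at most 145 bp in A and C. The difference of B from D was 1 region near the 5' end, at 111303519 to 111303706, which had a peak in both lists of D and in neither of B. Its score was 222 in D1 and 284 in D2, where the score is the authors' value per peak and is used here for ranks inside 1 list alone. The region next to it, at 111306209 to 111306341, went the other way. It was at percentiles 58.2 and 65.8 of the scores in B1 and B2 and at 3.56 and 0.665 in D1 and D2, so it stood in the middle of the B lists and at the bottom of the D lists. The single region that A2 and C2 shared with B and D was the one nearest the 3' end, at 111345386 to 111345530. It was at percentile 3.29 in A2 and 38.7 in C2, and between 81.5 and 89.4 in the 4 lists of B and D.

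LTV1 lies on chromosome 6 at 144164481 to 144184943 (plus strand, 20463 bp). The same 8 regions had a peak in all 4 lists of B and D. A1 had 2 peaks, A2 1, C1 1 and C2 3, a mean of 1.75 ± 0.957 (SD, n = 4 lists), so the groups did not overlap. Covered length was 2041 bp in B1 and 2063 bp in B2, D1 and D2, and between 110 and 416 bp in A and C. Here the peaks of A and C all lay at the 5' end. The first region, 27 bp from the start of the interval, was found in all 8 lists. The second was also in A1 and C2 and the third also in C2. The 5 regions further on were found only in B and D among these lists, up to the last base of the interval. The first region was at percentiles 83.2 to 88.3 in B and D and 55.5 to 74.0 in A and C. The widest region, at 144178244 to 144179144, spanned 901 bp in B2, D1 and D2 and 879 bp of these in B1.

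CCT3 lies on chromosome 1 at 156278751 to 156308206 (minus strand, 29456 bp). It had 8 peaks in B1 and 7 in B2, D1 and D2, a mean of 7.25 ± 0.5, against 3 in A1, A2 and C1 and 2 in C2, a mean of 2.75 ± 0.5 (SD, n = 4 lists each). CCT3 was the member with the most peaks in A and C, and the groups did not overlap. The peaks of A and C lay 4772 to 17390 bp from the 5' end, and all regions further on were without one. Regions at 156294763 to 156294880 and at 156290630 to 156290816 had a peak in all 8 lists. The first was at percentiles 84.2 to 86.9 in A and C, the second at 87.6 to 99.8, and both at 94.3 to 95.3 in B and D, where every score was the tied 3100. The 5 regions on the 3' side of these, from 156288808 down to the 3' end, had a peak in all lists of B and D and in none of A and C. One CCT3 region broke the pattern of the others, the one nearest the 5' end at 156303338 to 156303434. It had a peak in A1, A2, C1 and B1 and none in C2, B2, D1 and D2, and stood at percentile 89.8 in B1, 50.02 in A1, 64.0 in A2 and 66.7 in C1. Around CCT3 the listed peaks went in the opposite direction. Within 50 kb on its 3' side the same strand held 8 and 7 peaks in A, 11 and 10 in C, 3 and 5 in B and 2 and 3 in D, again without overlap between A and C on one side and B and D on the other. Such a flank is not rare. Among windows of 50 kb with at least 5 peaks in 1 list, 26.4% had fewer peaks in every list of B and D. The flanks of the other genes held at most 3 peaks in any list. In RefSeq order VHLL, GLMP, TMEM79 and SMG5 are among the neighbours on the 3' side of CCT3, and the peaks were not assigned to them.

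ERP44 lies on chromosome 9 at 102741464 to 102861330 (minus strand, 119867 bp) and is the longest of the 5. It had 12 peaks in each list of B, 11 in each list of D, 2 and 1 in A and 1 and 2 in C, or 11.5 ± 0.577 in B and D and 1.5 ± 0.577 in A and C (SD, n = 4 lists each). The groups did not overlap, and the difference of 10 peaks was the largest of the 5 genes. Covered length ran from 2142 to 2581 bp in B and D and from 269 to 411 bp in A and C. The region at the 5' end, at 102861066 to 102861334, was found in all 8 lists, at percentiles 38.8 to 58.4 in A and C and 80.1 to 84.0 in B and D. A region far toward the 3' end, at 102768788 to 102768929, was also found in A1 and C2. The other 10 regions were found in B and D and in no list of A and C. One of them, at 102814699 to 102814814, had a peak in both lists of B, with scores of 115 and 203, and in neither of D. The widest, at 102743746 to 102744995 near the 3' end, was 1250 bp in both lists of B and 927 and 1002 bp in D1 and D2.

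ANXA1 lies on chromosome 9 at 75766647 to 75785310 (plus strand, 18664 bp) and had no listed peak in A1, A2, C1 or C2. It had 7 peaks in B1, 5 in B2, 7 in D1 and 6 in D2, a mean of 6.25 ± 0.957 (SD, n = 4 lists). Covered length was 1932 bp in B1, 1039 bp in B2, 1603 bp in D1 and 1255 bp in D2, the widest relative spread within B and D of the 5 genes. Its peaks ranked high, with a median percentile of 88.3 in B1, 84.9 in B2, 81.7 in D1 and 73.0 in D2. In the other 4 genes the median within a list of B and D lay between 48.4 and 67.2. The spread in number came from 2 strong regions. The region at 75772918 to 75773517 scored 3100 in B1 and D1 and was not listed in B2 or D2. The region at 75781013 to 75781108 scored 2810 in B1, 1447 in D1 and 1004 in D2 and was not listed in B2. No other listed peak of either strand lay within 786483 bp before or 1327168 bp after the gene in any list.

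In LTV1, ANXA1 and ERP44 a peak lay within 27 bp of the 5' end of the interval, in all lists of B and D, and in LTV1 and ERP44 in A and C too. Their RefSeq start sites are shown for this reason, as 300 bases in the GRCh38.p14 build, which is another build than that of the lists. Capitals mark the first 50 transcribed bases, and small letters the 250 bases before them. Where the peaks fall on these letters was not placed, and RPF2 is named only.

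LTV1, chr6:143843088-143843387, plus strand: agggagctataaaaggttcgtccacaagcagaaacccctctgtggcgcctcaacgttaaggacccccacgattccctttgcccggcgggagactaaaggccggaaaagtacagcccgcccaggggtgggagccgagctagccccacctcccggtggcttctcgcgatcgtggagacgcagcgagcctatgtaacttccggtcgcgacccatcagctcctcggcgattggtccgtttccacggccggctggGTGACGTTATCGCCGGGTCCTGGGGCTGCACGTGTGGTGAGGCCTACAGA

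ANXA1, chr9:73151615-73151914, plus strand: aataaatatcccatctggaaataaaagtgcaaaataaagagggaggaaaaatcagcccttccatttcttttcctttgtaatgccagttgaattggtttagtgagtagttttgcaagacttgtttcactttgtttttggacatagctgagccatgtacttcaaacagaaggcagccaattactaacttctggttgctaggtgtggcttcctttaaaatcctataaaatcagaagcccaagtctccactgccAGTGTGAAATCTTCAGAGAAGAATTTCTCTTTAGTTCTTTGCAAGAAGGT

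ERP44, chr9:100098951-100099250, minus strand: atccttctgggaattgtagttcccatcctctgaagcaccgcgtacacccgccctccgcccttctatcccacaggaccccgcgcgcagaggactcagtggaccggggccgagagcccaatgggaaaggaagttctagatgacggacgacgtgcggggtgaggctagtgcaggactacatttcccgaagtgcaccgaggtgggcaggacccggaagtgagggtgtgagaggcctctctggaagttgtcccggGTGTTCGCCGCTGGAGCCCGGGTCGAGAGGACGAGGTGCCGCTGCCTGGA

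The start sites differed in composition. Of the first 50 transcribed bases of ANXA1, 18 (36%) were T, which is U in the RNA, and 93.8% of the 35116 RefSeq start sites of this length had fewer. The count was 17 (34%) in CCT3, 11 (22%) in LTV1 and 8 (16%) in ERP44, and the median over all start sites was 20%. The 250 bases before the start held 38.4% G and C in ANXA1, 61.6% in ERP44, 62.4% in CCT3 and 62.8% in LTV1, with a median of 58% overall. ANXA1 thus had a T-rich first stretch behind an A- and T-rich promoter, unlike LTV1 and ERP44. Motifs were searched on both strands in these 4 start sites, and a position is that of the motif's leftmost base as printed, with the first transcribed base as 0. TATAAA, the TATA box, lay at -31 in ANXA1 and at -243 in LTV1, and 11.5% of all start sites held it. CCAAT was found in all 4 and in 34.6% of all start sites. TGACGT, the core that binds CREB and ATF factors, lay at 1 in LTV1, and 7.98% held it. The antioxidant core TGACNNNGC (13.3% of all), which can overlap TGACGT, the heat shock pair GAANNTTC (6.77%) and the amino acid response core TGATGCAA (0.866%) were in none of the 4.

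The lists also carry a trace of peaks that are not in them. Peak names end in a number that followed position along every chromosome without exception in all 8 lists, and 49.7% to 52.1% of the numbers were listed. A number missing between neighbouring listed peaks may stand for a peak that was called and left out. The lists carry mRNA in their names, and whether the missing numbers were peaks not assigned to mRNA was not tested. Counting every missing number between the nearest listed peaks around a gene as a peak inside it gives an upper bound. In LTV1 no number was missing in any list of B and D, nor in A2 and C2, and the bound was 4 in A1 and 2 in C1, below the 8 peaks of B and D. In CCT3 the bound was 3 in each list of A and C, below the 7 of B and D, and in ERP44 it was 3 to 5, below 11. For these 3 genes the order of the groups did not depend on what the missing numbers stood for. In RPF2 the bound was 3 in A1, 7 in A2, 7 in C1 and 6 in C2, where B had 7 listed peaks. In ANXA1 it was 3 and 2 in A and 5 and 4 in C, where B2 had 5. For RPF2 and ANXA1 the lists of A and C could therefore reach the lowest list of B and D if every missing number were a peak of the gene. The nearest listed peaks lay far apart there, at least 231453 bp after the end of RPF2, so missing numbers could belong elsewhere.

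**Figure D2:**
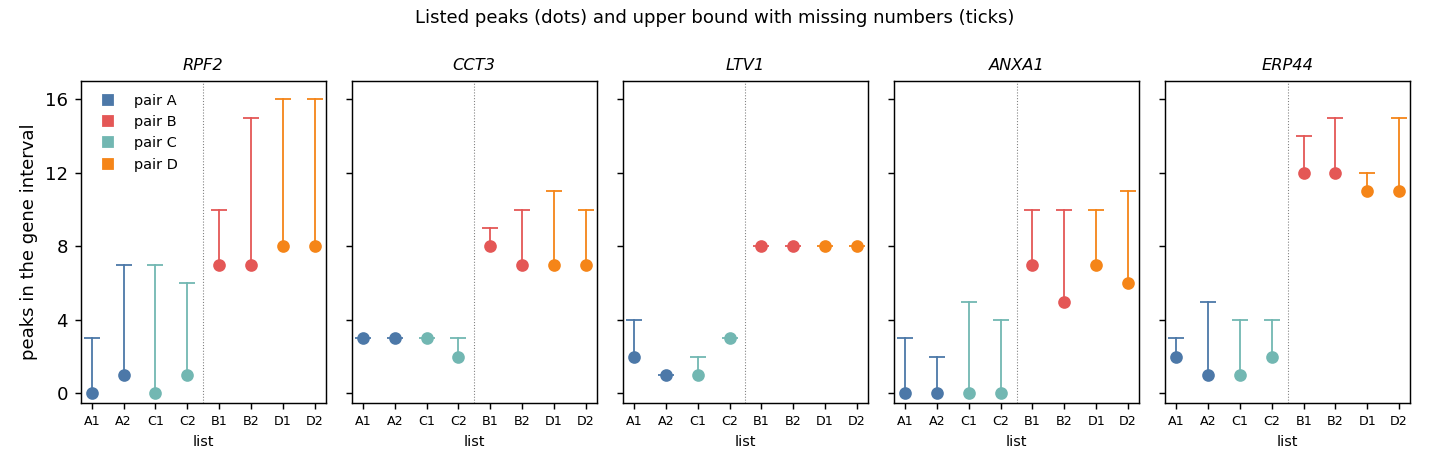
Number of peaks in each gene interval, by list. Dots are listed peaks and ticks the upper bound that counts missing numbers, and in CCT3, LTV1 and ERP44 the ticks of A and C stay below the dots of B and D.

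Place by place, the 43 regions had no listed peak at 146 places in the 4 lists of A and C. At 48 of these no number was missing between the listed neighbours, so the numbering left no room for an unlisted peak, and 20 of the 48 were in CCT3, 16 in ERP44 and 12 in LTV1. In B and D there were 10 places without a listed peak, and at 9 of them a number was missing. These 9 included the CCT3 region nearest the 5' end, with 3 missing numbers in each of B2, D1 and D2, and the ANXA1 region at 75772918, with 1 in each of B2 and D2. The tenth was the ERP44 region at 102814699 in D1, where no number was missing. In D2 1 number was missing there. By contrast, a number was missing at all 30 places of A and C in RPF2 and at all 28 in ANXA1. The same counts were not made over all regions, and the genes were chosen on this contrast. Nothing is therefore read from these counts about the difference between the groups.

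Against the rest of the genome, the intervals stood at the upper end of the change in peak number. Over 14536 same-strand windows of 50 kb that held a peak in any list, 5.81% had more peaks in every list of B and D than in any list of A and C. Of the 1741 windows with at least 5 peaks in 1 list, 11.7% did, and 26.4% had fewer in every list. The difference of mean peak number was 4 or more in 70 windows (0.482%) toward B and D and in 216 (1.49%) toward A and C. Every list of A and C was longer than every list of B and D, with 21979 to 25111 against 19953 to 21160 peaks. With every list at the length of the shortest, 8.10% of windows had more peaks in every list of B and D than in any of A and C. The other shares were not run at equal length. The window holding RPF2 had the largest gain of all, at 7 peaks. The window of ANXA1 ranked 3 at 6.25, the windows of LTV1 and the middle of ERP44 shared rank 10 at 5.5, and the window with most of CCT3 ranked 22 at 4.75. These ranks describe how the members were chosen.

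**Figure D3:**
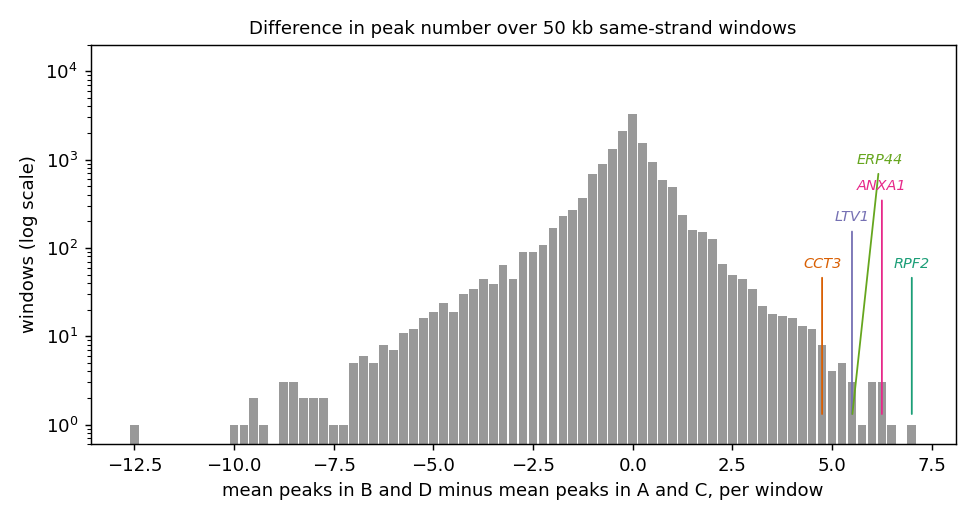
Mean number of peaks in B and D minus that in A and C over 14536 windows of 50 kb on 1 strand, with the number of windows on a log scale. Lines mark the window of each gene with the largest difference, from 4.75 for CCT3 to 7 for RPF2.

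Outside the 5 genes, the largest gain was on chromosome 21 at 26950001 to 27000000 (minus strand), with 9 peaks in each list of B, 6 and 8 in D, 1 and 1 in A and 2 and 2 in C. Windows on chromosome 20 at 30350001 (plus strand) and chromosome 7 at 103800001 (minus strand) followed with a difference of 6.25. Windows on chromosome 2 at 44000001 (plus strand) and chromosome 7 at 16700001 (plus strand) had a difference of 6, as did the window on chromosome 9 at 15450001 (minus strand). By summed absolute difference over the 8 lists, the windows closest to CCT3 were on chromosome 3 at 127800001 and 109000001 (both minus strand), which differed by 2 and 3 peaks in all. The closest to LTV1 were on chromosome 9 at 15450001 and chromosome 19 at 33400001 (both minus strand), at 3 and 4 peaks. For ANXA1 windows on chromosome 6 at 143750001 and chromosome 7 at 35900001 (both plus strand) were at 5, and for RPF2 windows on chromosome 19 at 33400001 and chromosome 4 at 104000001 (both minus strand) were at 7. For ERP44, whose interval is longer than a window, the closest were those on chromosome 21 at 26950001 and chromosome 9 at 15450001, both at 16.

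The second factor is the difference of C and D from A and B. In the record it is AS against no treatment, and in the list names K512R against WT. The genes were not chosen on it. Peak number was 3.75 ± 3.77 in A and B and 4.25 ± 4.35 in C and D for RPF2, 5.25 ± 2.63 and 4.75 ± 2.63 for CCT3, and 4.75 ± 3.77 and 5 ± 3.56 for LTV1 (SD, n = 4 lists each). It was 3 ± 3.56 and 3.25 ± 3.77 for ANXA1 and 6.75 ± 6.08 and 6.25 ± 5.5 for ERP44 (SD, n = 4 lists each). These means differed by 0.5 peaks or less. Exact 2-sided permutation tests over 70 orders of the lists gave p = 0.629 to 1 for the 10 tests of peak number and covered length, with an adjusted p (Benjamini-Hochberg) of 1 in each. A lack of difference cannot be read from them, since their spread holds the contrast the genes were chosen on, which raises p. The smallest p possible was 0.0286, but only a second-factor difference large beside that contrast could have given a small p. With orders kept within A and C and within B and D, p was 0.278 to 1 and the adjusted p 0.833 to 1 (exact permutation, 36 orders). The smallest p possible there was 0.0556, so that test could not show a difference in the second factor. In RPF2 the covered length of 868 bp in both lists of D stood above the 680 bp in both lists of B. Over all windows, 0.2% had more and 0.124% fewer peaks in every list of C and D than in any of A and B. The gain from A to B and that from C to D were both part of how the genes were chosen. Their likeness in size is thus described only. The gains were 6.5 and 7.5 peaks in RPF2, 4.5 and 4.5 in CCT3, 6.5 and 6 in LTV1, 6 and 6.5 in ANXA1 and 10.5 and 9.5 in ERP44. The largest differences in covered length were in RPF2, with gains of 607.5 and 795.5 bp, and in ERP44, with 2241 and 1839.5 bp (both p = 0.278, exact permutation over 36 orders, adjusted p = 1). This permutation too has 0.0556 as its smallest p and could not pass 0.05.

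B and D could also be compared by rank, since 38 of the 43 regions had a peak in all 4 of their lists. In 2 of these, both in CCT3, every score was 3100, and they were left out as tied. Of the remaining 36, both lists of D ranked below both lists of B in 15 (41.7%), above in 4 (11.1%) and overlapped in 17. Over the 12922 such regions of the series, 26.6% ranked below and 27.1% above. ANXA1 held 5 of the 15. All 5 of its compared regions ranked below in D, by a median of -20.5 percentile points, and without it 10 of 31 (32.3%) did. Its region at the start of the interval was at percentiles 74.7 and 76.9 in B and 38.1 and 62.7 in D, and the one at 75775179 to 75775341 at 88.2 and 84.9 in B and 64.2 and 68.0 in D. The regions of a gene share its RNA and are not independent, and no test of these ranks was run, as 2 lists against 2 have only 3 splits for a permutation. RPF2 had 4 of 7 regions below and 1 above, and CCT3 had 3 of 5 below and 1 above. ERP44 had 1 of 11 below and 10 that overlapped, with a median difference of -1.04 points. In LTV1 2 were below and 2 above. The largest rise was at 144183241 to 144183380 in LTV1, at percentiles 24.0 and 28.1 in B and 62.8 and 66.5 in D.

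**Figure D4:**
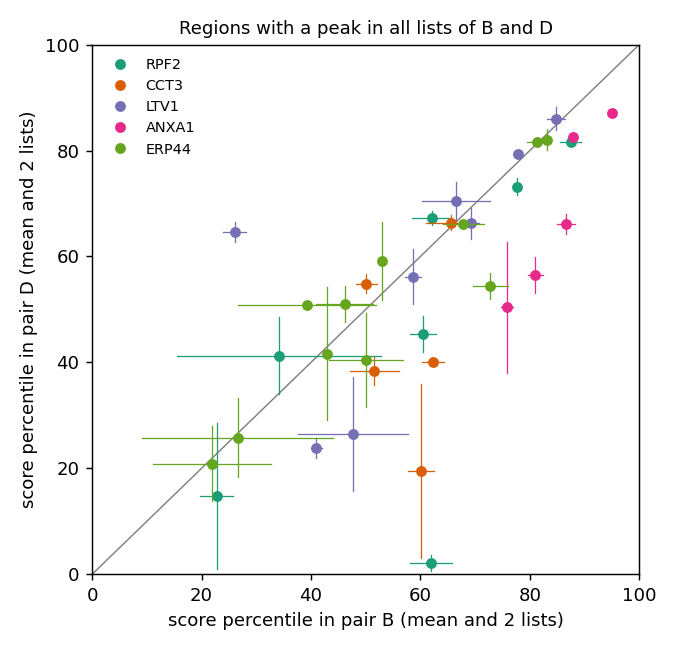
Score percentile within the list of 36 regions in pair B (horizontal axis) and pair D (vertical axis). Dots are means of 2 lists, lines run from one list to the other, and the diagonal marks equal ranks, with all 5 ANXA1 regions below it.

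Within B and D the 30 regions absent from A and C had a median percentile of 51.7, and the 1106 such regions of the series 43.7. In 12 of the 30 (40%) every list of B and D ranked the peak above its own median, against 23.3% of the 1106. As the members were chosen for runs of peaks, this is a description only.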

How the data were processed

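RNA of H1299 cells with Myc-tagged PABPC1 was sequenced after ribosomal RNA removal (labels' protocols). The sample record gives A and C as the IP and B and D as input, and its conflict with the list names was not settled. Tools named in the submitters' processing notes are cutadapt 1.9.3 and HISAT2 2.0.4, and the build named there is hg19. The authors deposited a list of peaks for each of 8 samples used here, of 16 in the series, with a score of unstated unit per peak that ranged from 13.02 to 3233.06. Between 8.17% and 11.0% of peaks scored 3100 or more, so top ranks are tied. The peak names begin with MACS, and the caller's version, control and threshold are not stated there. Lists were grouped by sample title.

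Same-strand peaks overlapping a gene by 1 bp were counted, and percentiles were taken within a list. All 5 members are named, and outside them the 5 windows of 50 kb with the largest difference and the 2 closest in profile to each member. The second factor was tested by exact permutation. Alternatives were a score threshold, list length, overlap, joining, window size and each list left out. The window rule was run on simulated lists with planted gains larger than the largest window difference of these lists, 7 peaks. The permutation was run on a fixed set of made-up values. Neither run shows how the methods do at the differences reported here. The members and lists were chosen with earlier results of these data known. The bound from missing numbers, the places without a peak, the ranks of B and D and the motifs were added after the peaks had been seen. Python 3.11.15, numpy 2.4.6, pandas 2.3.3 and matplotlib 3.10.9 were used.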

Additional observations from a re-analysis of the deposited data

Results flagged for a closer look

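Some lists stood apart from the other 3 of their set of 4, by the size of their gap to the nearest list. The other 3 lists were equal or nearly so in each case, so small differences met the rule and its rate by chance is not known. In CCT3, C2 had 2 peaks and 305 bp where A1, A2 and C1 had 3 peaks and 402 bp, and B1 had 8 peaks and 1455 bp where B2, D1 and D2 had 7 peaks and 1348 to 1358 bp. Both rest on the region nearest the 5' end of CCT3. In LTV1, B1 covered 2041 bp where B2, D1 and D2 covered 2063 bp, a difference within the widest region.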

How the results depend on the processing

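All 5 genes had more peaks and more covered bases in every list of B and D than in any list of A and C with the peaks above each list's median score, with every list at the length of the shortest, with 50% of a peak required inside the interval, with peaks closer than 200 bp joined and without each list in turn. The genes were chosen on this contrast, and leaving out a list cannot undo an order that holds for every list. The smallest gap between regions was 845 bp, so joining at 200 bp could change nothing. Requiring 50% of a peak inside the interval changed no gain. Nothing is read from these alternatives about the stability of the difference. With missing numbers counted as peaks in A and C, an alternative added after the data were seen and run for peak number only, 3 of the 5 genes had more peaks. Above the median score the gain in peaks fell to 4.75 in RPF2, 2.5 in CCT3, 4.75 in LTV1 and 6.25 in ERP44. The share of windows with more peaks in every list of B and D was 11.7% among windows with at least 5 peaks in 1 list, against 5.81% of all windows, and ranged from 6.38% to 6.93% without each list. It was 8.10% with every list at the length of the shortest and 8.04% with the peaks above each list's median score. With windows of 20 and 100 kb it was 4.65% and 6.91%, and the 50% overlap was not run for windows, which cover no gene interval. In the second factor 0 of 5 genes passed 0.05 by either measure with the replicate block, with orders kept within A and C and within B and D (added after the data were seen) and in the other alternatives. This says nothing about stability, since the first 2 could not pass with 36 orders and the others take their spread from the contrast the genes were chosen on. Pairing of the lists by replicate number was weak over windows, where deviations of same-numbered lists from their pairs correlated at 0.0173 to 0.0348. Unknown depth limits all counts: a peak absent from a list was not detected there.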
